A study of Homo sapiens with 6 samples.

Results

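The genes described here are the zinc finger genes of chromosome 19, taken as the protein-coding rows of the deposited count table on that chromosome whose symbol is ZNF followed by a number. The table holds 249 such genes among 58735 rows. The 210 with a mean of 20 or more reads over all 6 libraries are the members, and all 210 were tested. The mean count over both cell lines chose them, so their level is not a result. The count rule itself does not use the difference between the cell lines, but the family was chosen for description with earlier results of these data known. C4-2B is an established human castration-resistant prostate cancer cell line derived from LNCaP, and RC4-2B is its subclone, made resistant to the taxane cabazitaxel (CBZ) by repeated treatment at rising concentrations and recovery between cycles. RNAseq was done on 3 biological replicates of each. The labels give RPMI-1640 with fetal bovine serum as the medium, and the RNAseq methods of the study name CSS in it as well. RC4-2B is 1 subclone, so a difference from C4-2B may belong to that subclone as much as to CBZ resistance, and these cannot be told apart. The comparison asks which of these genes changed their transcript level in the resistant cells.

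C2H2 zinc finger proteins are the largest family of human DNA-binding proteins. Each finger is a short loop held by a zinc ion between a pair of cysteines and a pair of histidines, and a row of fingers reads a stretch of DNA. Most of the chromosome 19 genes arose by tandem duplication and lie side by side in clusters. Many carry a KRAB domain at the start of the protein, which recruits the corepressor TRIM28 (KAP1) and, through it, the histone H3 lysine 9 methyltransferase SETDB1. Their best known targets are retrotransposons, which they keep silent.

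The libraries held 15707134 to 18052517 counts each, which puts 3 counts at 0.170 to 0.188 on the CPM scale (counts scaled to library size by TMM). The luminal prostate markers KLK2, KLK3, FOLH1, TMPRSS2, KRT8 and KRT18 were detected in every library. KLK3 (PSA) fell from 974 ± 55.1 CPM in C4-2B to 48.4 ± 14.9 CPM in RC4-2B (SD, n = 3; log2 fold change -4.33, adjusted p = 0.000154 in edgeR), and TMPRSS2 fell from 184 ± 11.5 to 87.2 ± 18.5 CPM (-1.08, adjusted p = 0.0190 in edgeR). KLK2, FOLH1, KRT8 and KRT18 did not pass edgeR's test, though KLK2 did with the GC correction (log2 fold change -0.83, adjusted p = 0.0408). PECAM1, DCN, KRT5 and TP63 were at 0 in every library, and CD3E and PTPRC had at most 3 counts in any. COL1A1, a fibroblast marker, was at 21.2 to 36.6 CPM and VWF, an endothelial marker, at 3.64 to 8.14 CPM. In RC4-2B replicate 2 genes with low GC content were high and genes with high GC content low. Members aside, the median deviation from the C4-2B mean was 0.44 on the log2 scale under 40% GC and -0.74 at 55% or more. RC4-2B replicate 3 ran the same way more weakly, at 0.14 and -0.16, and RC4-2B replicate 1 was at 0.0033 and -0.044. Without RC4-2B replicate 2 the median log2 fold changes of these genes were still 0.073 and -0.11. Results that rest on RC4-2B replicate 2 are given with and without it and after a correction for GC content.

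Of the 210 genes, 2 rose and 1 fell in RC4-2B at an adjusted p under 0.05 in edgeR's quasi-likelihood test, a share close to the background. Over all 15054 genes tested, 1.08% were called higher and 0.903% lower, 1.98% together. ZNF492 and ZNF257, which lie in the same cluster, rose, and ZNF844 fell. The log2 fold change of the members ran from -1.74 to 2.98, with a median standard error of 0.20. It was over 1 in 7 genes (ZNF492, ZNF676, ZNF534, ZNF257, ZNF665, ZNF547 and ZNF730) and under -1 in ZNF844 alone. ZNF676, ZNF534 and ZNF665 reached the count minimum only through RC4-2B, so their direction is not read and the 2 counts cannot be compared. Loss of cells with a transcript and loss of transcript per cell cannot be told apart in such bulk RNA.

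ZNF492 had 26, 37 and 45 counts in the C4-2B libraries and 220, 355 and 260 in the RC4-2B libraries. On the CPM scale the levels were 1.55, 2.09 and 2.56 in C4-2B against 13.8, 20.2 and 15.3 in RC4-2B, so the lowest RC4-2B library stood far above the highest C4-2B library. The means were 2.07 ± 0.506 CPM and 16.4 ± 3.39 CPM (SD, n = 3 each), a fitted 7.90-fold rise. The log2 fold change was 2.98, with a standard error (SE) of 0.25 and an adjusted p of 0.00117 in edgeR. It is the member with the smallest p, and the only 1 of the 3 called genes whose adjusted p stayed under 0.05 whichever library was left out, with a highest value of 0.0137. With the correction for GC content its log2 fold change was 2.77. Per length of transcript it was a weak gene in C4-2B, at 0.437 ± 0.109 FPKM, and reached 3.54 ± 0.819 FPKM in RC4-2B. The gene lies on the plus strand of chromosome 19 at 22634324 to 22667670 (GRCh38), and its coding sequence holds 12 finger patterns. Of the 100-base windows of its longest transcript, 18.4% also occur in other genes, mainly in its neighbour ZNF98, so part of its counts could belong to a paralog.

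ZNF257 (22052452 to 22091480, plus strand) had 3.28, 2.26 and 4.10 CPM in C4-2B against 6.88, 11.2 and 8.81 CPM in RC4-2B. All RC4-2B libraries exceeded all C4-2B libraries. Its log2 fold change was 1.48 (SE 0.28, adjusted p = 0.0357), a 2.79-fold rise, and no 100-base window of it occurs in another gene. Its adjusted p was 0.198, 0.162 and 0.101 without C4-2B replicates 1, 2 and 3 and 0.109 without RC4-2B replicate 3, so the call needs these 4 libraries. Without RC4-2B replicate 2 it was 0.00263.

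ZNF844, in another cluster, went the other way, with 3.28, 4.08 and 4.55 CPM in C4-2B against 1.13, 1.31 and 1.12 CPM in RC4-2B. The counts behind these levels were 55, 72 and 80 in C4-2B against 18, 23 and 19 in RC4-2B, and the groups do not overlap. Its log2 fold change was -1.74 (SE 0.25, adjusted p = 0.0147). The adjusted p passed the threshold without RC4-2B replicate 1 or 2, and was 0.0609, 0.0907 and 0.0958 without C4-2B replicates 1, 2 and 3 and 0.073 without RC4-2B replicate 3. Of its 100-base windows 44.5% are shared with another gene model of GENCODE release 44, so its counts may be split or shared between them.

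**Figure D1:**
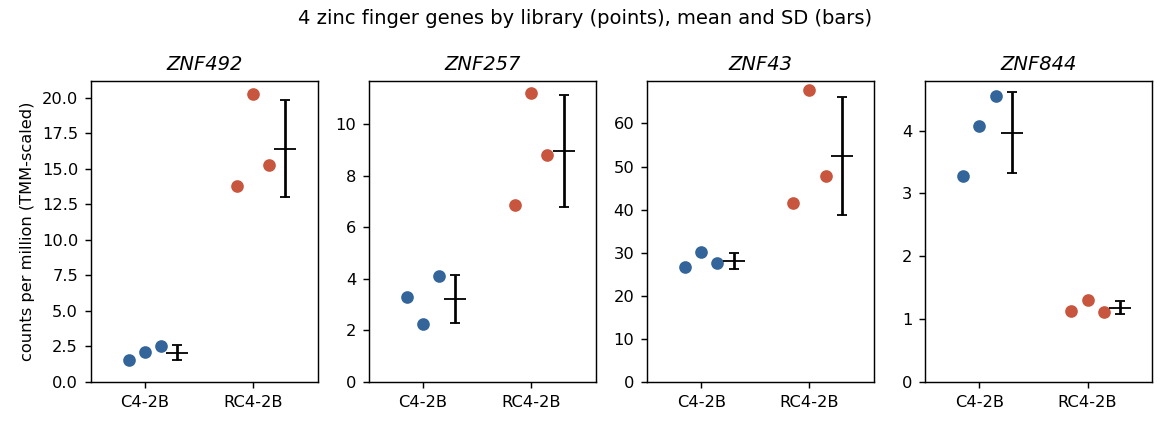
TMM-scaled CPM of ZNF492, ZNF257, ZNF43 and ZNF844 in each of 3 C4-2B (blue) and 3 RC4-2B (orange) libraries, with the mean and SD beside the points. In ZNF492, ZNF257 and ZNF43 all RC4-2B points lie above all C4-2B points, and in ZNF844 all lie below.

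ZNF43, a gene with 19 fingers that lies before ZNF257 on the chromosome, had an adjusted p of 0.0518 and so just missed the threshold. Its levels were 26.6, 30.1 and 27.6 CPM in C4-2B against 41.6, 67.8 and 47.8 CPM in RC4-2B. The log2 fold change was 0.90 (SE 0.19). The other genes among the 8 smallest p on the higher side were ZNF665 (1.28, adjusted p = 0.0533), ZNF569 (0.73, 0.0632), ZNF347 (0.71, 0.0634), ZNF730 (1.00, 0.0708) and ZNF433 (0.71, 0.0743), given as log2 fold change and edgeR's adjusted p. In each of the 5 the groups do not overlap. All RC4-2B libraries were above all C4-2B libraries in 17% of all genes tested, and these 5 were picked for small p. For example, ZNF569 had 7.64, 7.42 and 8.54 CPM in C4-2B against 12.8, 14.8 and 11.6 CPM in RC4-2B. ZNF665 had 1.07, 1.08 and 1.02 CPM in C4-2B against 3.13, 2.39 and 2.23 CPM in RC4-2B. It reached the count minimum only through RC4-2B, so its direction is not read.

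How many members were called depended strongly on the fit. DESeq2 called 14 higher and 1 lower, against a background of 3.28% and 2.64% of the genes it adjusted. With the GC correction edgeR called 8 higher and 1 lower, with a background of 4.34% and 3.25%. Without RC4-2B replicate 2 it called 17 higher and 2 lower, with a background of 6.5% and 6.02%, and without it and with the GC correction 15 and 2 (6.74% and 6.56%). Without any filter on low counts it called 17 and 4 (2.07% and 2.22%). ZNF492 and ZNF257 were among the genes called higher with DESeq2, with the GC correction, without RC4-2B replicate 2 and with both changes. The 8 genes that these 4 fits all called higher were ZNF492, ZNF257, ZNF43, ZNF66, ZNF730, ZNF665, ZNF347 and ZNF569, and 5 of these 8 lie in the cluster of ZNF492. At an unadjusted p under 0.05, edgeR had 41 members higher (background 12%) and 4 lower (9.42%).

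Across the whole family the balance was towards higher levels in RC4-2B. The log2 fold change was above 0 in 160 of the 210 genes, 76.2%, against 50.7% of all genes tested, and below 0 in 50, against 49.3%. In 53 members all RC4-2B libraries exceeded all C4-2B libraries, against 17% of all genes tested, and in 12 every RC4-2B library was below, against 17.1%. The median log2 fold change was 0.21, beside 0.0063 over all genes tested. It was -0.35 over the 654 other protein-coding genes of chromosome 19 with the same count minimum. For the 217 zinc finger genes of other chromosomes chosen by the same symbol and count rules it was 0.15. These medians are descriptions of genes that share libraries, not tests.

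Library by library the shift was uneven. The median deviation of the members from their C4-2B mean was -0.11, 0.027 and 0.10 on the log2 scale in C4-2B replicates 1, 2 and 3, and 0.094, 0.42 and 0.14 in RC4-2B replicates 1, 2 and 3. RC4-2B replicate 1 thus lay below C4-2B replicate 3, and the groups overlap. RC4-2B replicate 2 was the highest library for 127 of the 210 members, and C4-2B replicate 1 was the lowest for 105. Without RC4-2B replicate 2 the median log2 fold change was 0.11, with 142 genes above 0. With the GC correction it was 0.097 with 143 genes above 0, and with both it was 0.072 with 128 above 0. After the correction the per-library medians were -0.077, 0.017 and 0.080 in C4-2B against 0.074, 0.15 and 0.055 in RC4-2B, which again overlap. Read as a share of each library, member counts made up 0.279%, 0.306% and 0.322% of C4-2B and 0.327%, 0.376% and 0.338% of RC4-2B.

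**Figure D2:**
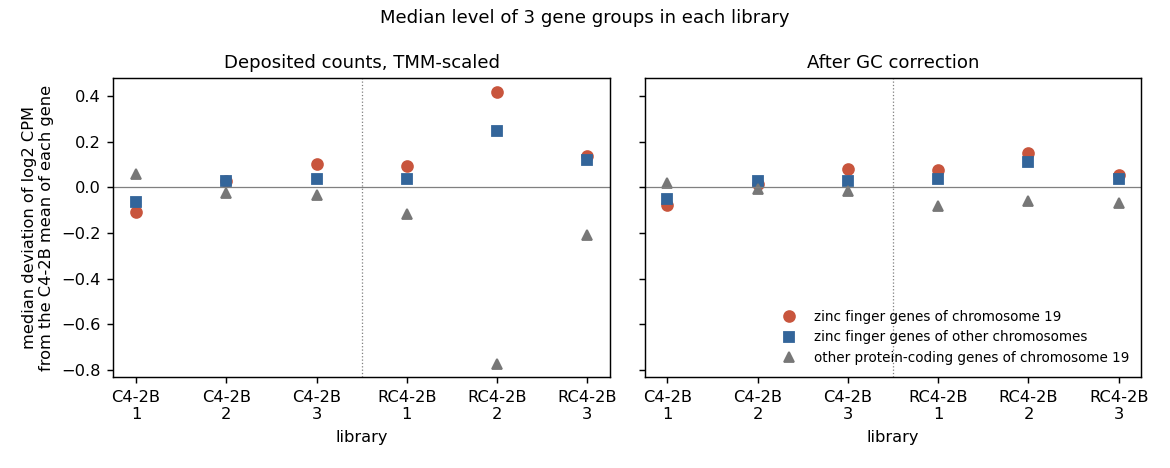
Median deviation of log2 CPM from each gene's C4-2B mean, per library, for the chromosome 19 zinc finger genes (circles), zinc finger genes of other chromosomes (squares) and other protein-coding genes of chromosome 19 (triangles), before (left) and after (right) the GC correction. Before it, RC4-2B replicate 2 stands apart at 0.42 for the members and -0.77 for the other chromosome 19 genes. After it, these values are 0.15 and -0.058, and the other chromosome 19 genes are at -0.080 and -0.068 in RC4-2B replicates 1 and 3.

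The members are unusual for their chromosome in base composition. The median GC content of their longest transcript was 42.3% (34.1% to 70.9%), whereas it was 60.2% for the other protein-coding genes of chromosome 19 and 48.2% for all genes tested. Among members with under 40% GC the median log2 fold change was 0.38 (57 genes, 55 above 0), beside 0.20 for other genes in that range. From 40% to 45% it was 0.21 (97 genes) beside 0.14, and from 45% to 55% it was 0.11 (35 genes) beside 0.0072. At 55% GC or more it was -0.40 (21 genes, 1 above 0) beside -0.28. Members and other genes therefore ran the same way with GC content. With the correction the 4 ranges had medians of 0.17, 0.080, 0.040 and 0.0019, with other genes between -0.0031 and -0.0010. The correction takes out any mean difference in GC trend between the cell lines as well. The part of GC content in the shift was not tested.

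Grouping by protein features gave a similar split. A KRAB pattern was found in the coding sequence of 175 members, with a median log2 fold change of 0.23 and 146 above 0. It was not found in 35, with a median of -0.14 and 14 above 0. The 35 had a median GC content of 57.8% and the 175 of 41.9%, and with the GC correction the medians were 0.099 and 0.094. The pattern can miss diverged domains, and it was not found in ZNF492. The members held 1 to 31 finger patterns, with a median of 12. Genes with over 12 fingers had a median of 0.26 (104 genes), those with 6 to 12 fingers 0.20 (95 genes), and the 11 genes with 5 or fewer -0.39. With the GC correction these were 0.12, 0.080 and -0.18, and without RC4-2B replicate 2 they were 0.12, 0.10 and -0.22.

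Along the chromosome the 249 genes fell into 16 clusters, with a new one opened where neighbouring starts were over 1 Mb apart. The cluster from ZNF101 to ZNF254, at 19.7 to 24.1 Mb, holds 37 genes, of which 28 are members, and had the highest median of the clusters with 5 or more members, 0.44. Of its 28 members 25 were above 0, 13 had all RC4-2B libraries above all C4-2B libraries (17% of all genes tested), and 1 (ZNF101) had every one below (17.1%). Both members that rose lie in it. Its per-library medians were -0.21, 0.048 and 0.15 in C4-2B against 0.12, 0.81 and 0.43 in RC4-2B, so RC4-2B replicate 1 did not exceed C4-2B replicate 3. The median was 0.22 without RC4-2B replicate 2 and 0.23 with the GC correction. ZNF101, at its edge, had 19.8, 20.7 and 19.6 CPM in C4-2B against 16.8, 19.4 and 16.4 CPM in RC4-2B (log2 fold change -0.19, adjusted p = 0.402).

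**Figure D3:**
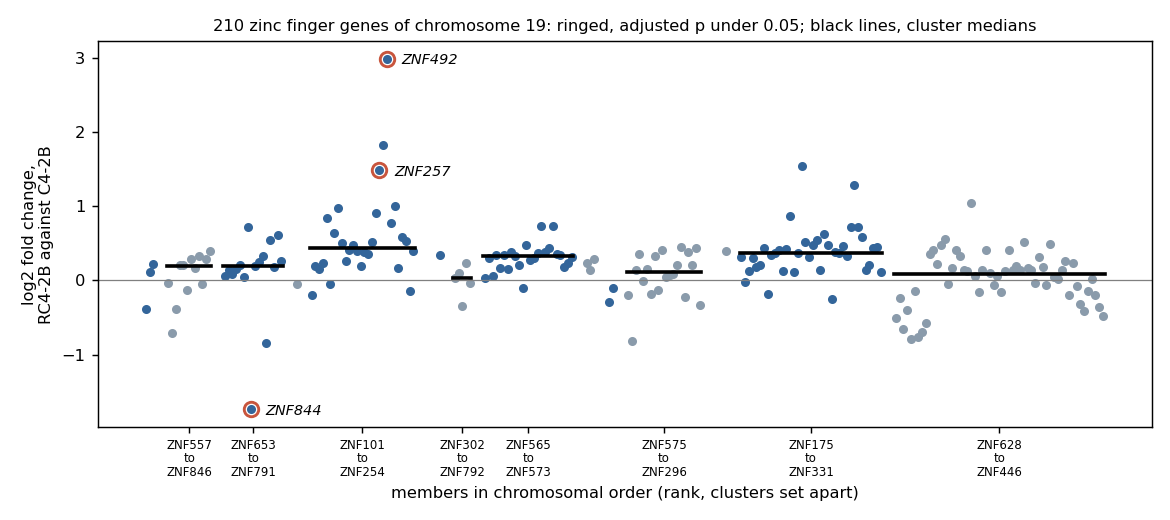
Log2 fold change, RC4-2B against C4-2B, of the 210 members in chromosomal order, with clusters set apart in alternating colours, black lines at the medians of clusters with 5 or more members and rings around the 3 genes with an adjusted p under 0.05. The highest line, 0.44, is that of the cluster from ZNF101 to ZNF254, which holds ZNF492 and ZNF257.

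Inside that cluster several of the higher values sat next to each other, but not all. ZNF93, at 0.83, lies outside the stretch described here and exceeded ZNF728 within it. The stretch from ZNF43 to ZNF730, 21804949 to 23147219, was picked out after the values were seen. Its protein-coding genes are 11 zinc finger genes and nothing else, and only 6 of them are members, because the others had low counts. The log2 fold changes of these 6 ran from 0.78 (ZNF728) to 2.98 (ZNF492), and with the GC correction from 0.58 to 2.77, and since the stretch was picked for high values their direction is no result. ZNF676 had 12, 9 and 11 counts in C4-2B against 35, 61 and 16 in RC4-2B (log2 fold change 1.83, adjusted p = 0.0995). It reached the count minimum only through RC4-2B, so its direction is not read. ZNF729, just under the count minimum, had 4, 4 and 8 counts in C4-2B against 25, 40 and 38 in RC4-2B, and ZNF208 had 6, 7 and 10 against 14, 16 and 20. Both could pass the filter on low counts only through RC4-2B, so their direction in the test was fixed and is not read.

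The remaining genes of the stretch were too weak to test. ZNF98 had 0, 0 and 1 counts in C4-2B against 12, 13 and 2 in RC4-2B, and ZNF99 had 0, 0 and 1 against 5, 3 and 6. ZNF723 was detected only in RC4-2B replicate 2, with 2 counts. Since several of these genes are near copies and the counting of reads that map to several genes is not given in the sources used here, their counts may not be independent.

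**Figure D4:**
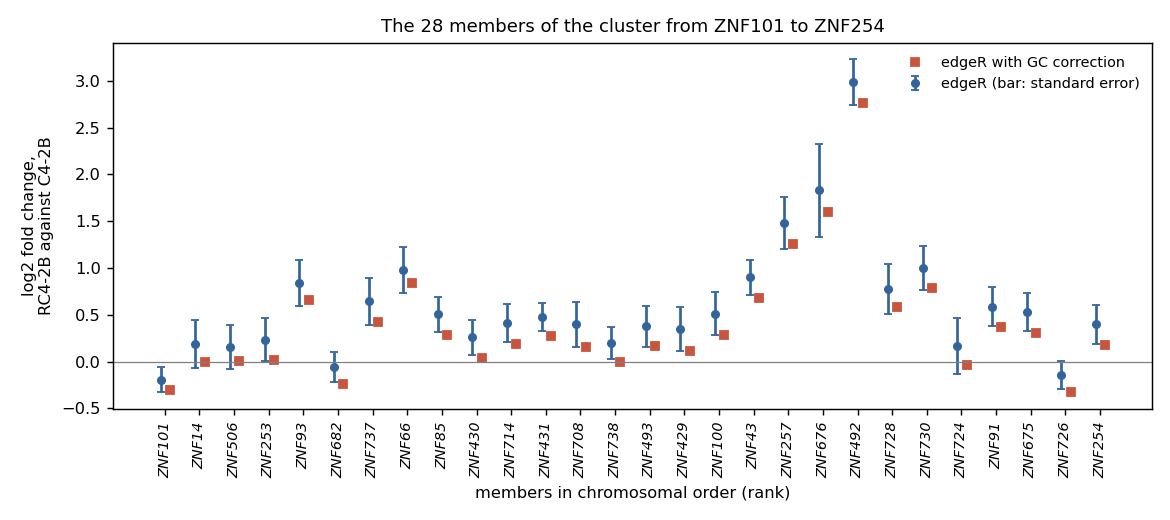
Log2 fold change of the 28 members from ZNF101 to ZNF254 in chromosomal order, from edgeR (circles, with standard errors) and from edgeR with the GC correction (squares). Values peak at ZNF492 (2.98 and 2.77), with ZNF257 and ZNF676 just before it and ZNF728 just after it, and fall to -0.19 and -0.31 at ZNF101.

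The promoters of ZNF492, ZNF257 and ZNF43 are shown because the genes lie in the stretch picked for higher levels in RC4-2B, beside that of ZNF844, which fell. Other zinc finger genes lie between them. The sequences are the 250 bases before each gene's start in RefSeq (GRCh38.p14), 5′ to 3′ on the gene's strand, with CCAATCAG, which contains a CCAAT box, in capitals. This motif was chosen after the sequences were seen.
ZNF492 (chr19:22634074-22634323, plus strand): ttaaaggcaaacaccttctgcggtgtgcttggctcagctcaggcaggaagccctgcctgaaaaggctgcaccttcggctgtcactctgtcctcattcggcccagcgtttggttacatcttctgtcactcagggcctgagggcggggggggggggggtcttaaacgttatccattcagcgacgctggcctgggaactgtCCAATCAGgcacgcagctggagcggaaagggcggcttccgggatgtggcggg
ZNF257 (chr19:22052234-22052483, plus strand): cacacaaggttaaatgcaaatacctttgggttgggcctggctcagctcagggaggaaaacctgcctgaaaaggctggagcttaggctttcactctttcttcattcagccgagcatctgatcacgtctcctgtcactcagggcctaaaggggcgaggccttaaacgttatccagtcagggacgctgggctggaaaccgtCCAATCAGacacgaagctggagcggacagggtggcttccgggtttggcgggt
ZNF43 (chr19:21836183-21836432, minus strand): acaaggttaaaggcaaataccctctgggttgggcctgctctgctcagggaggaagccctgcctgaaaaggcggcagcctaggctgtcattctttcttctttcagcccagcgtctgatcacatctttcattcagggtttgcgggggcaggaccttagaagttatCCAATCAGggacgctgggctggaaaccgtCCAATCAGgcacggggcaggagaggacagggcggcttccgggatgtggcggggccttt
ZNF844 (chr19:12064481-12064730, plus strand): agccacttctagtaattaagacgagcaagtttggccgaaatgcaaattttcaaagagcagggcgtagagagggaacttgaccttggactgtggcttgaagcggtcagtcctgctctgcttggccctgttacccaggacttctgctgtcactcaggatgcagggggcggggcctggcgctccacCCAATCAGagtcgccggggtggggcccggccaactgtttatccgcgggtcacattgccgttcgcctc

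The motif begins 52 bases before the start in ZNF492 and ZNF257, 87 and 58 bases before it in ZNF43 and 67 bases before it in ZNF844. Over windows from 250 bases before to 50 after the start, the promoter of ZNF492 was 76.9% identical to that of ZNF257 and 77.2% to that of ZNF43 in a global alignment, and 51.6% to that of ZNF844. Of the 210 members, 187 matched a RefSeq promoter by symbol. A gene was counted if CCAATCAG occurred on either strand in any of its promoters. It was found for all 23 genes from the cluster of ZNF492 and 13 of 16 from the cluster of ZNF844. Outside the cluster of ZNF492 it was found for 18 of 164 genes (11.0%). The share over all 35116 RefSeq promoters was 3.97%, which is counted per promoter and not per gene. Outside the cluster of ZNF492 the median log2 fold change was 0.14 for the 18 genes with it and 0.17 for the 146 without it.

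In the cluster of ZNF844, from ZNF653 to ZNF791, 16 of 26 genes are members, and the median was 0.19. ZNF844 held its lowest value and ZNF433 its highest, with 6.26, 6.62 and 5.18 CPM in C4-2B against 9.32, 10.5 and 9.75 CPM in RC4-2B. ZNF442 had 2.63, 2.09 and 1.99 CPM against 1.25, 1.48 and 0.999 CPM, with a log2 fold change of -0.84 and an adjusted p of 0.155. In 14 of the 16 members the log2 fold change was above 0, and in 10 with the GC correction. ZNF844 was the only one of them that passed edgeR's test.

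The cluster from ZNF175 to ZNF331 has 38 members with a median of 0.37, or 0.21 with the GC correction and 0.16 without RC4-2B replicate 2. In 15 of them all RC4-2B libraries exceeded all C4-2B libraries (17% of all genes tested) and in none was every one below (17.1%). No member of it passed edgeR's test, where 14 had an unadjusted p under 0.05, all on the higher side (12% of all genes tested, and 9.42% on the lower). DESeq2 called 4 of them higher (background 3.28%), the GC correction 2 (4.34%) and the fit without RC4-2B replicate 2 called 5 (6.5%). ZNF665 and ZNF347 were among them each time. Its highest value was that of ZNF534, at 0.537, 0.396 and 0.854 CPM in C4-2B against 1.63, 2.68 and 0.94 CPM in RC4-2B (log2 fold change 1.54, adjusted p = 0.133). ZNF534 and ZNF665 reached the count minimum only through RC4-2B, so their direction is not read.

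From ZNF565 to ZNF573, 23 of 24 members were above 0 with a median of 0.33, and 0.14 with the GC correction. The largest cluster, from ZNF628 to ZNF446 at the end of the long arm, has 56 members with a median of 0.079. There 7 members had all RC4-2B libraries above all C4-2B libraries and 6 had every one below, both lower shares than the 17% and 17.1% of all genes tested. The 6 were ZNF524, ZNF784, ZNF581, ZNF787, ZNF444 and ZNF446, none of which has a KRAB pattern, with GC contents of 57.8% to 70.4%. ZNF784 had 11.3, 10.2 and 7.17 CPM in C4-2B against 6.25, 3.65 and 6.64 CPM in RC4-2B (log2 fold change -0.80, adjusted p = 0.162). ZNF547 was its highest, at 1.04 (adjusted p = 0.0958). The cluster from ZNF557 to ZNF846 had a median of 0.19 over 12 members, that from ZNF575 to ZNF296 0.11 over 20, and that from ZNF302 to ZNF792 0.030 over 5. Without RC4-2B replicate 2 the medians of the cluster of ZNF844 and of these 5 lay between -0.034 and 0.19.

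The most abundant members per transcript length were GC-rich genes apart from the first. ZNF146 (OZF), a protein that is little more than fingers, had 29.8, 33.7 and 33.0 FPKM in C4-2B against 34.3, 49.6 and 37.1 FPKM in RC4-2B. Its log2 fold change was 0.30 (adjusted p = 0.255). ZNF358 had 19.4, 16.4 and 15.4 FPKM against 13.4, 4.72 and 13.7 FPKM, and ZNF524 had 12.3, 10.7 and 11.7 FPKM against 9.34, 3.80 and 9.18 FPKM. ZNF787 had 15.8 ± 1.95 FPKM in the parental and 9.86 ± 4.85 FPKM in the resistant cells (SD, n = 3), with 4.30 FPKM in RC4-2B replicate 2. In these 3 genes RC4-2B replicate 2 was by far the lowest library. The log2 fold changes of ZNF358, ZNF787 and ZNF524 were -0.70, -0.70 and -0.66, which became -0.16, -0.10 and -0.26 with the GC correction, and none passed edgeR's test (adjusted p = 0.279, 0.290 and 0.259). ZNF580 had 15.1, 11.7 and 12.8 FPKM against 14.1, 9.45 and 12.8 FPKM, and its groups overlap.

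Among the 12 members with a known role none passed edgeR's test. An unadjusted p under 0.05 was found in 3, all on the higher side (12% of all genes tested, and 9.42% on the lower). ZNF91, which represses SVA retrotransposons, had 20.5, 26.8 and 31.7 CPM in C4-2B against 32.3, 49.4 and 36.8 CPM in RC4-2B (log2 fold change 0.59, adjusted p = 0.174). ZNF93, which represses a group of L1 elements, had 6.98, 6.34 and 9.05 CPM against 9.57, 17.3 and 13.0 CPM (0.83, adjusted p = 0.122). It was the 1 of the 12 called by DESeq2 (adjusted p = 0.0433, background 3.28% higher) and without RC4-2B replicate 2 (0.0493 in edgeR, background 6.5% higher). Its adjusted p was 0.0214 in edgeR with no filter. Both lie in the cluster of ZNF492, and in both all RC4-2B libraries exceeded all C4-2B libraries. ZNF808, another repressor of retroviral elements, had 7.58, 7.53 and 9.28 CPM against 12.1, 12.8 and 9.93 CPM (0.51, adjusted p = 0.162). ZNF473, a factor of histone mRNA processing, had a log2 fold change of 0.40 (adjusted p = 0.251). ZNF274, which recruits SETDB1 to the zinc finger genes themselves, had 31.0, 32.7 and 35.5 CPM against 30.1, 31.2 and 25.4 CPM (-0.19, adjusted p = 0.393), with overlapping groups. ZNF132, a gene reported as methylated in prostate cancer, had 7.99, 7.30 and 9.62 CPM against 7.88, 9.06 and 8.28 CPM, a log2 fold change of 0.018 (SE 0.17). The values of ZNF175, ZNF568, ZNF350, a partner of BRCA1, ZNF304 and ZNF224 lay between -0.13 and 0.31, all with overlapping groups.

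The partner genes of KRAB zinc finger proteins were described from a list of 38, of which 36 were tested. None passed the threshold in edgeR, where 3 had an unadjusted p under 0.05 on the higher side (12% of all genes tested) and 5 on the lower (9.42%), and DESeq2 called 2 (background 5.93%). The median log2 fold change was 0.020. TRIM28 had 1045, 963 and 928 CPM in C4-2B against 827, 636 and 801 CPM in RC4-2B, and the groups do not overlap. Its log2 fold change was -0.38 (SE 0.12, adjusted p = 0.151), but 0.11 with the GC correction (adjusted p = 0.690), so its direction depends on that choice. For SETDB1 the mean ± SD over 3 libraries was 44.1 ± 1.81 CPM in the parental cells against 44.3 ± 3.71 CPM in the resistant ones, and the log2 fold change was 0.0082. The smallest adjusted p, 0.0622, was that of ATF7IP, a stabilising partner of SETDB1, with 40.4, 46.9 and 44.3 CPM against 60.7, 89.3 and 67.7 CPM (log2 fold change 0.73). DNMT3A, a DNA methyltransferase, had 20.9, 21.7 and 23.8 CPM against 14.0, 11.3 and 16.7 CPM (-0.66, adjusted p = 0.0916). With the GC correction ATF7IP and DNMT3A were the 2 that passed (background 7.6%), at adjusted p = 0.00921 and 0.0311. Without RC4-2B replicate 2 the 5 that passed (background 12.5%) were ATF7IP, DNMT3A, MTA1, TRIM28 and FAM208A.

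At the count minimum, the members just inside were ZNF534, ZNF222 and ZNF676, and the genes just outside were ZNF729 and ZNF540, both at a mean of 19.8 counts, and ZNF846 at 17. Of the 39 genes under the minimum, 8 were at 0 in all 6 libraries and 13 had at most 3 counts in any library. Among the 9 that passed the filter of the test, ZNF221 had 5, 4 and 7 counts in C4-2B against 29, 23 and 22 in RC4-2B. Like ZNF729 it passed the filter only through RC4-2B, so no call is read from it. Changes of genes below 3 counts are not detectable at this depth.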

How the data were processed

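RNA of 3 C4-2B and 3 RC4-2B cultures was sequenced, and the authors aligned reads to GRCh38 with STAR. The deposited counts are whole reads per Ensembl gene, without normalization, and the deposited FPKM values are those counts per gene length and library total. The counting program, strand setting and treatment of multimapping reads are not given in the sources used here. The labels call the libraries biological replicates, and all pairs within a line differed by more than sampling noise (chi-square per gene 3.38 to 65.4).

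The tests used edgeR 4.0.16 in R 4.3.3, with TMM scaling, filterByExpr (minimum count 10, 15054 genes), glmQLFit and glmQLFTest with a term for cell line only, Benjamini-Hochberg adjustment over all genes tested and a threshold of 0.05. An SE is the size of the log2 fold change over the root of F. CPM are TMM-scaled. Some of the cell type markers are not reported here. The members, gene lists and partner list were chosen with earlier results of these data known. Named genes are the called members, the 8 smallest p in each direction, the 5 highest FPKM, the 3 nearest each side of the count minimum, a list with known roles, the called partners with TRIM28 and SETDB1, and the extremes of each cluster. Genes named as chosen after their values were seen, the stretch from ZNF43 to ZNF730, ZNF66, ZNF208, ZNF221, ZNF444, ZNF728 and members listed for a count are additions.

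GC content is that of the longest GENCODE release 44 transcript. For the correction, each library's deviation of log2 CPM was smoothed against GC by lowess (span 0.2) and used as an offset. Finger and KRAB patterns were searched in translated GENCODE coding sequences, because no protein table was used here. Shared windows are 100-base stretches found in transcripts of other genes. Alternatives were DESeq2 1.42.0, RLE and upper-quartile scaling, no filter, a mean of 10 counts, the replicate number as a block, the GC correction, each library left out, limma 3.58.1 on log2 FPKM with a pseudocount of 1 or 0.1 (genes at 1 FPKM or more in 3 libraries), a prior count of 2, other count minimums and cluster gaps, and a fold threshold. The fit and the GC correction were tested on simulated data.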

Additional observations from a re-analysis of the deposited data

How the results depend on the processing

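The number of members called was the least stable result. The main fit called 2 higher and 1 lower, and no filter gave 17 and 4, the GC correction 8 higher, DESeq2 14 higher, and the GC correction without RC4-2B replicate 2 15 and 2. Over the 6 fits that leave out a library the counts ran from 1 to 17 higher and from 0 to 2 lower, with 17 and 2 without RC4-2B replicate 2 and 4 higher without RC4-2B replicate 1. Both limma fits on FPKM, which tested 166 members, gave 1 and 0. A member minimum of 10 counts gave 4 higher, but ZNF729 and ZNF221 among them passed the filter only through RC4-2B and are not read as calls. One of 100 counts gave 0 lower. ZNF492 passed in all 18 alternatives, ZNF257 in 11 of 18 and ZNF844 in 11 of the 16 that tested it. The prior count of 2 is among these and leaves each adjusted p as in the main fit, so a pass there was fixed. The number above 0 and the median over the members kept their direction in all alternatives run for them.

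Whether the replicate numbers of the labels pair the libraries is not known. Same-numbered libraries had deviations correlated at 0.318, 0.176 and -0.070, and differently numbered ones at -0.290 to 0.174. With 3 libraries a line these values cannot decide it. With the replicate block 1 member was called higher and 0 lower, and with the replicate block and the GC correction 4 higher.

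Cluster medians moved by more than the spread (SD) over the RC4-2B libraries in few cases. For ZNF101 to ZNF254 and ZNF175 to ZNF331 that spread was wide, 0.35 and 0.30, with RC4-2B replicate 2 highest. With the GC correction and without that replicate their medians fell from 0.44 to 0.14 and from 0.37 to 0.10. The medians that moved by more were, with the GC correction, -0.079 for ZNF302 to ZNF792, 0.14 for ZNF565 to ZNF573 and -0.042 for ZNF575 to ZNF296. They were -0.080, 0.14 and -0.048 with the block as well. With the GC correction and without RC4-2B replicate 2 they were 0.042 for ZNF557 to ZNF846, 0.019 for ZNF653 to ZNF791, 0.13 for ZNF565 to ZNF573 and -0.018 for ZNF575 to ZNF296. Leaving out a library moved ZNF575 to ZNF296 from -0.034, without RC4-2B replicate 2, to 0.18. With gaps of 2 Mb the cluster of ZNF302 joined a larger one with a median of 0.30.

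Of the 36 partner genes 2 were called by DESeq2 (background 5.93%), with no filter (2.07% higher and 2.22% lower) and with the GC correction (7.6%). With block and correction 2 were called as well. Their count ran from 0 to 5 over the fits that leave out a library, with 5 without RC4-2B replicate 2 (12.5%). It was 4 with the correction and without RC4-2B replicate 2 (6.74% higher and 6.56% lower). Their median ran from -0.050, without RC4-2B replicate 2, to 0.063, and was -0.069 with the correction as well. The cause of these changes was not tested. Depth limits the genes under 3 counts, and 1 subclone and 3 libraries a line limit every comparison.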
